A study of Mus musculus with 2 samples.

Results

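Open chromatin between the 5′ ends of divergent protein-coding gene pairs was examined in mouse megakaryocytes, the bone marrow cells that shed platelets. A pair was a gene on the minus strand lying upstream of a gene on the plus strand, with the 5′ ends of the 2 gene records at most 1 kb apart. Of 20807 protein-coding genes on chromosomes 1 to 19, 1448 genes (6.96%) formed 734 such pairs. Peaks that overlapped within a sample were merged, and a shared region was the union of merged regions that overlapped between the samples. Of 67991 shared regions, 685 (1.01%) overlapped the interval between the 5′ ends of a pair, and these are the member regions described here. The choice used gene positions and the presence of a peak in both samples, not the strength, width or sequence of the regions. ATAC-seq, in which a transposase cuts and tags accessible DNA, was run on 2 samples of one group, each of 50000 primary megakaryocytes from adult male C57BL/6J mice aged 5 to 6 weeks. No genotype or treatment other than the strain is labelled, and neither is a control cell type. The labels list the samples as biological replicates 1 and 2 but give both the same donor record, and the sequencing instruments are named for replicate 2 alone. Each SD below is the spread between these 2 samples, no condition could be compared, and no test was made. ATAC-seq of bulk cells cannot tell a promoter open in few cells from one weakly open in many.

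As background, 2 genes that point away from each other can share the short stretch of DNA between their starts as one promoter. In mammals such bidirectional promoters are usually rich in CpG and poor in TATA boxes. They often belong to genes with housekeeping roles, such as DNA repair, mitochondrial translation and RNA processing, and the replication-dependent histone genes are a textbook case. ATAC-seq shows where DNA is accessible and not which strand is transcribed, so these data describe open chromatin between the starts and not transcription in either direction.

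The intervals between the 5′ ends of 11 pairs are printed below from the mm10 genome, plus strand, 5′ to 3′, so that the minus-strand gene starts off the left end and the plus-strand gene off the right end. Capitals mark exact matches on either strand to CCGGAAG (ETS), GGGCGG (SP/KLF), GCGCATGC (NRF1), CCAAT (NF-Y), TGACGTCA (CRE), AAGATGGC (YY1), ACTACAA (ZNF143/THAP11) or, as the TATA box, to TATAAA. The intervals of Sec24a-Sar1b (chr11:51763635-51763686), Ptcd2-Mrps27 (chr13:99344706-99344785) and Timm23-Parg (chr14:32201899-32201948) are shown because their regions were among the 10 strongest. Hps5-Gtf2h1 (chr7:46796065-46796102) is shown as the strongest pair with a gene of the megakaryocyte and platelet list. Mrps12-Sars2 (chr7:28741821-28741991), Psmb1-Tbp (chr17:15499752-15499887) and Brca1-Nbr1 (chr11:101551956-101552148) are textbook pairs. Hist1h2an-Hist1h2bp (chr13:21787219-21787460) and Hist1h2ac-Hist1h2bc (chr13:23683949-23684198) stand for the histone H2A and H2B pairs. Col4a4-Col4a3 (chr1:82586850-82586920) and Peg3-Usp29 (chr7:6730432-6730577) had no shared region.
Sec24a-Sar1b: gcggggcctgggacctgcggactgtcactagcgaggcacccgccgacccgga
Ptcd2-Mrps27: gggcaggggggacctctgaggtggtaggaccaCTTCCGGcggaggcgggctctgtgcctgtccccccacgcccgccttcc
Timm23-Parg: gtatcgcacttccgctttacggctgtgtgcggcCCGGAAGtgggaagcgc
Hps5-Gtf2h1: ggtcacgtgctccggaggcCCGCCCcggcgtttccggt
Mrps12-Sars2: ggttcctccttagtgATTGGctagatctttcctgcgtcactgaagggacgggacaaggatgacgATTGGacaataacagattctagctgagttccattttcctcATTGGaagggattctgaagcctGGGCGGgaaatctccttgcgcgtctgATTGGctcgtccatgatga
Psmb1-Tbp: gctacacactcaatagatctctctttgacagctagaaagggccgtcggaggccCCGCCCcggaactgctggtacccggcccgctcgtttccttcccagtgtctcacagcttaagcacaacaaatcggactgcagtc
Brca1-Nbr1: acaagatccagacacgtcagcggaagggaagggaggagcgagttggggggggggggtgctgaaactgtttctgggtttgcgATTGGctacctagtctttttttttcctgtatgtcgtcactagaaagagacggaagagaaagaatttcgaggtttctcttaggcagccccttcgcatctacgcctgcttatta
Hist1h2an-Hist1h2bp: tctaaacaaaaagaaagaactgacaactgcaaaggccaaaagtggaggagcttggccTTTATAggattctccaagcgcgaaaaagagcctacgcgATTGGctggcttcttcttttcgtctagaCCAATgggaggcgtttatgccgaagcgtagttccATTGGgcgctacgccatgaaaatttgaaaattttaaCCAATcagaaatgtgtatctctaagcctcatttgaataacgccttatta
Hist1h2ac-Hist1h2bc: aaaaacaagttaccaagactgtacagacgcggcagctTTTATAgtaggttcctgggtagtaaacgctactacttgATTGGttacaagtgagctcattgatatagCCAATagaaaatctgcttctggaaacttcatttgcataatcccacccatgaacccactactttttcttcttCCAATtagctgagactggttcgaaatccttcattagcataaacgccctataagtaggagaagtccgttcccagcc
Col4a4-Col4a3: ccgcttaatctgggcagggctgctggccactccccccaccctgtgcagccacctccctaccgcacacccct
Peg3-Usp29: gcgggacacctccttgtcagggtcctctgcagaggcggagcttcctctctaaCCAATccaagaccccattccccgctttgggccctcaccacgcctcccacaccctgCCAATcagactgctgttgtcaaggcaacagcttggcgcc

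The printed intervals differ in what they hold. The 52 bases between Sec24a and Sar1b were 75% G or C with 6 CpG dinucleotides and no match to the 8 motifs. The 80 bases between Ptcd2 and Mrps27 and the 50 bases between Timm23 and Parg each held 1 ETS match. The 171 bases between Mrps12 and Sars2 held 4 CCAAT boxes and 1 SP/KLF match. Both histone intervals were poorer in G and C (42.6% and 41.6%), with 4 and 3 CCAAT boxes and a TATA box each. The interval of Col4a4-Col4a3 had 2 CpG dinucleotides in 71 bases and no match, whereas that of Peg3-Usp29 had 5 in 146 bases and 2 CCAAT boxes.

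Nearly all pairs were open. A shared region overlapped the interval of 691 of the 734 pairs (94.1%), against 9357 of 19359 (48.3%) unpaired coding 5′ ends, for which an upstream window as long as the median spacing of the pairs was searched. The comparison is uneven. An interval joins 2 coding 5′ ends, spans up to 987 bp and was open if a region touched any part of it. In replicate 1 alone 690 pairs (94.0%) had a region, and in replicate 2 alone 691 pairs (94.1%). The corresponding shares of unpaired 5′ ends were 48.5% and 49.0%. Of the 43 pairs without a shared region, 42 had none in either replicate, and Kctd19-Lrrc36 had one in replicate 1 only. Unpaired genes that faced a non-coding gene within 1 kb lay between the other groups, with a shared region at 572 of 757 (75.6%). For the 18602 with no divergent gene of any kind within 1 kb the share was 47.2%.

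The share of open pairs followed CpG content, and at each CpG count it was above that of unpaired 5′ ends. CpG dinucleotides were counted within 150 bp of the midpoint of each interval or, for unpaired 5′ ends, of the upstream window. With 0 to 4 CpG, 12 of 28 pairs (42.9%) had a shared region, against 9.02% of 5955 unpaired 5′ ends. With 5 to 9, 30 of 40 pairs (75%) had one, against 27.8% of 2984. With 10 to 19, the pairs reached 164 of 170 (96.5%) and the unpaired 5′ ends 67.0% of 3816. With 20 to 29, the shares were 97.4% of 266 pairs and 83.1% of 3643 unpaired 5′ ends. With 30 or more, they were 98.3% of 230 pairs and 81.2% of 2961. Low counts were rare among the pairs. Of the pairs, 3.81% had fewer than 5 CpG, against 30.8% of unpaired 5′ ends.

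Within lists of genes that every cell uses, the contrast was smaller. All 60 paired genes for mitochondrial proteins had a shared region at the pair, against 209 of 243 unpaired ones (86.0%). For DNA replication and repair the counts were 44 of 46 paired genes and 108 of 120 unpaired ones. For the cytosolic ribosome the paired share was the lower one, 8 of 9 (88.9%) against 62 of 69 (89.9%). Median fold enrichment, the height of a region over its local background, was not uniformly higher for the paired genes of a list. It was 14 for paired and 14.2 for unpaired mitochondrial genes, 13.1 and 14.2 for DNA replication and repair, and 12.1 and 13.9 for cell cycle and mitosis. For RNA polymerase, splicing and RNA processing it was 13.52 and 14.15. For the cytosolic ribosome it was 13.20 and 13.57, and for aminoacyl-tRNA synthetases 14.61 and 15.02. The order was the other one for proteasome, ubiquitin-conjugating and chaperone genes (13.2 paired, 12.4 unpaired), vesicle traffic (13.2 and 12.1), zinc finger proteins (14.1 and 13) and histones (9.38 and 7.31).

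**Figure D1:**
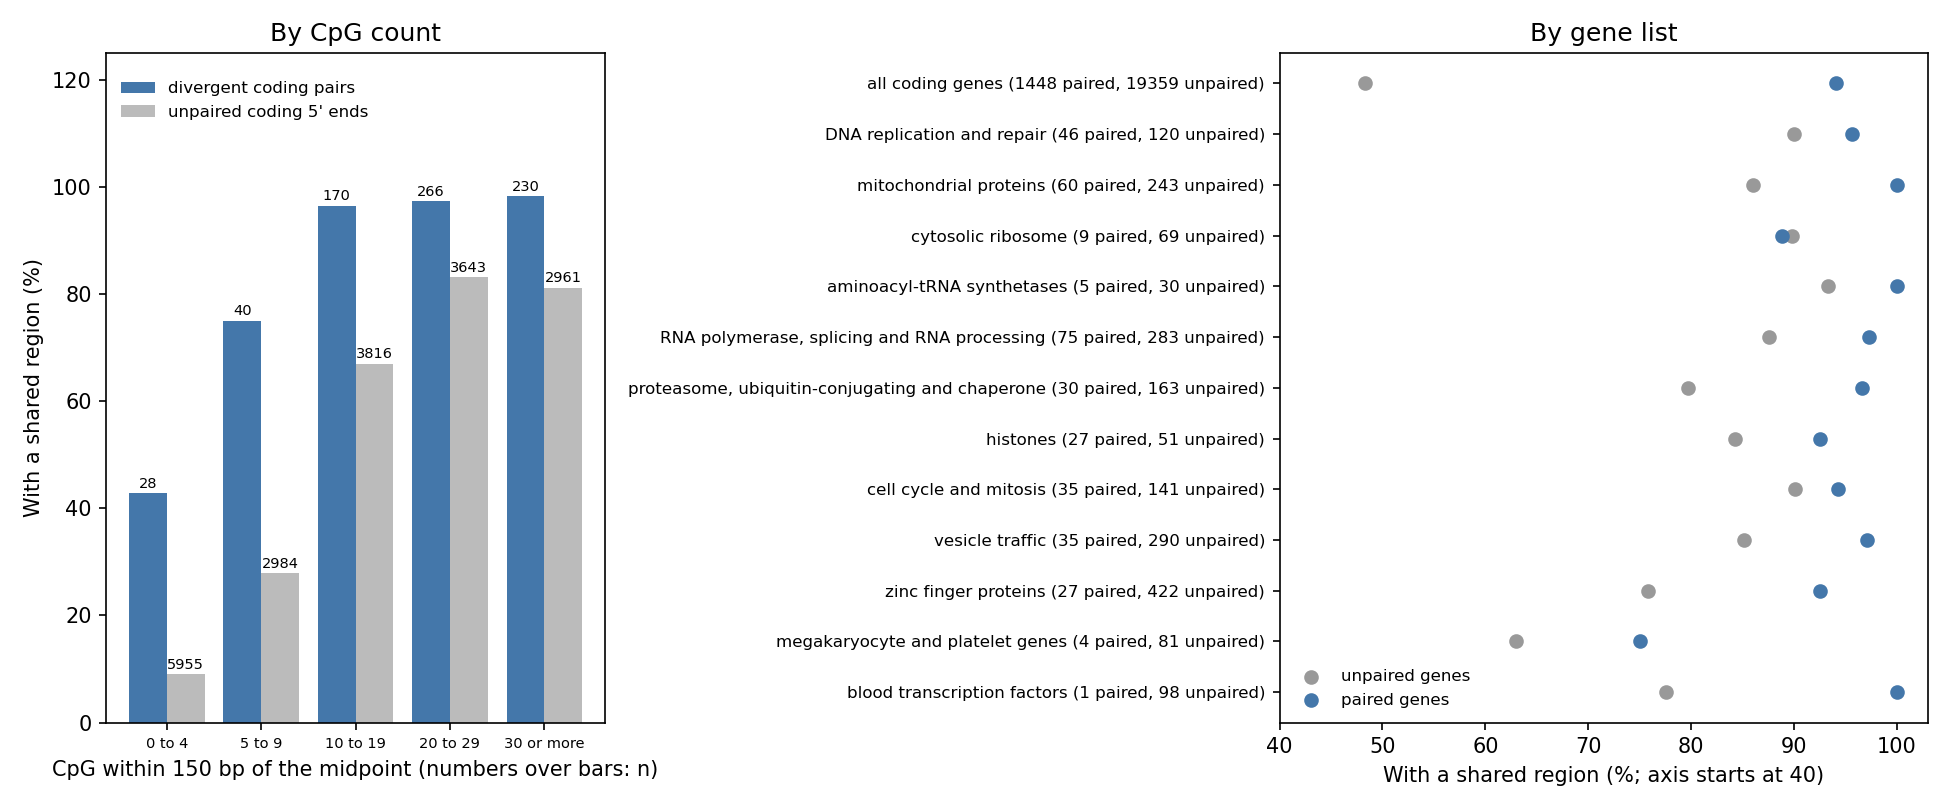
Share of divergent pairs and of unpaired coding 5′ ends with a shared region, left by CpG count within 150 bp (bars, with n above each) and right by gene list (points, axis from 40%). The blue bars stand above the grey ones in each CpG group, while in the lists the 2 kinds of gene lie closer than over all coding genes (94.1% and 48.3%).

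Member regions were moderately stronger and wider than those at unpaired coding 5′ ends. Their median fold enrichment was 12.7 in replicate 1 and 12.3 in replicate 2 (12.5 ± 0.261, SD, n = 2). The 8927 regions at unpaired 5′ ends had medians of 11.5 and 11.2, and all shared regions 7.29 and 7.71. Of the unpaired regions, the 565 at genes that faced a non-coding gene lay closer to the members, with 11.97 and 11.7. The gap between members and all unpaired regions was the same in direction in both replicates and wider than the spread between replicates. With the list of each sample thresholded on the irreproducible discovery rate (IDR), the gap of the medians was 0.625 in place of 1.08. The difference lay at the weak end. The 10th percentile of the mean fold enrichment was 8.50 for members and 5.92 for unpaired regions, whereas the 90th was 16.6 for both. In replicate 1, 436 members (63.6%) exceeded the unpaired median, and in replicate 2, 435 (63.5%).

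The gap was present in each tertile of CpG content. With 0 to 20 CpG around the summit, the median of the members exceeded that of unpaired regions by 1.48 in replicate 1 and 1.248 in replicate 2. With 21 to 29 CpG it did so by 0.781 and 0.782, and with 30 to 63 CpG by 1.21 in both. CpG counts themselves were similar, with medians of 26 for members, 25 for unpaired regions and 5 for all shared regions. The ratio of observed to expected CpG was 0.864 for members and 0.809 for unpaired regions, and G and C made up 63.8% and 64.1%. Median width was 1021 bp for members, 875 bp for unpaired regions and 462 bp for all shared regions. Unpaired regions at genes that faced a non-coding gene had 971 bp, so most of the excess in width was not particular to coding pairs. In replicate 1, 81.3% of members were merged from 2 or more listed peaks, against 69.6% of unpaired regions.

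**Figure D2:**
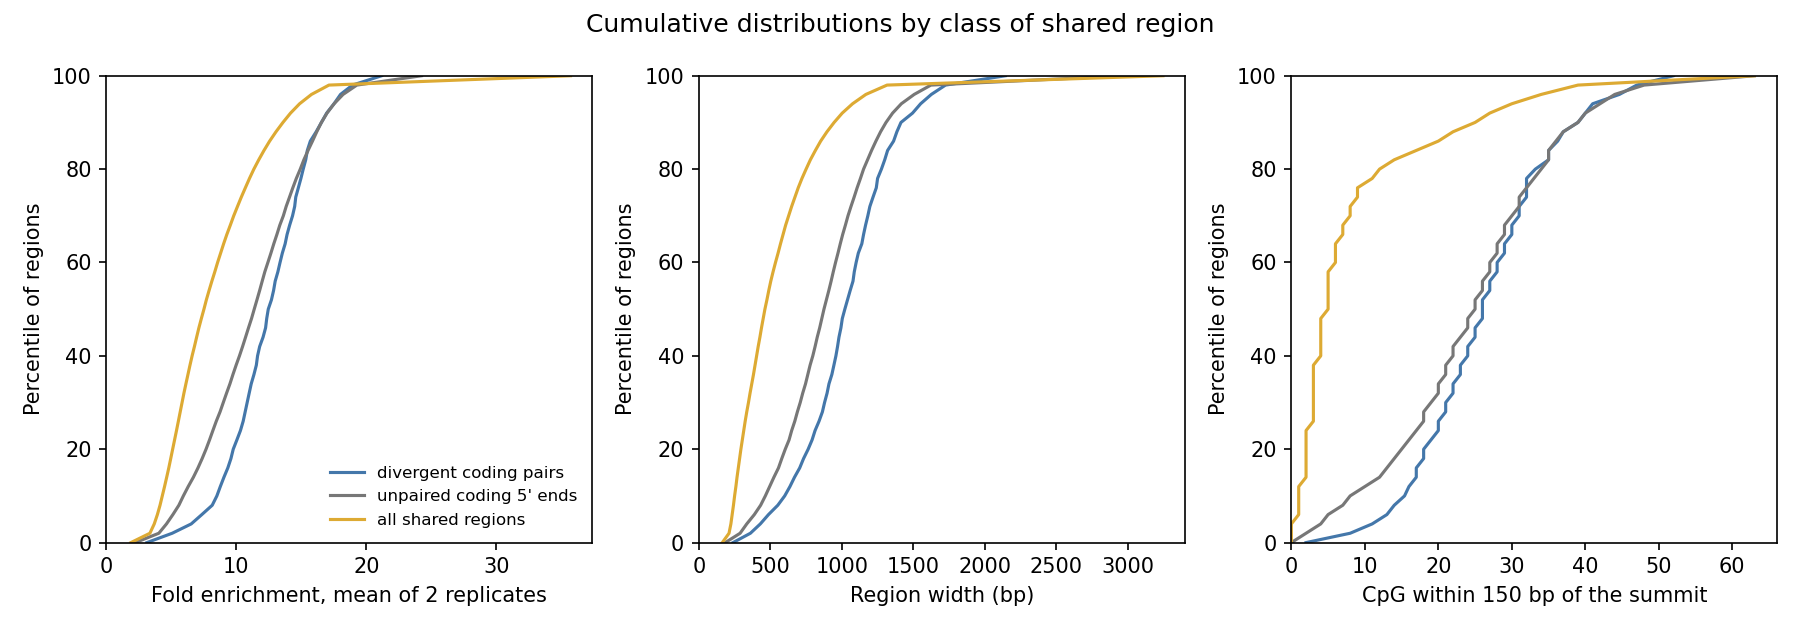
Percentiles of regions against fold enrichment (mean of 2 replicates), width in bp and CpG dinucleotides within 150 bp of the summit, for member regions, regions at unpaired coding 5′ ends and all shared regions. The curves for members and unpaired regions separate at low fold enrichment (10th percentiles 8.50 and 5.92) and meet at the 90th percentile (16.6 for both).

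The replicates gave nearly the same values at the pairs. An IDR-thresholded peak in both replicates overlapped 664 of the 685 members (96.9%), against 53.3% of all shared regions and 88.3% of unpaired promoter regions. Fold enrichment differed by more than 1.5-fold between replicates at 1 member (0.146%), against 0.571% of unpaired promoter regions and 3.52% of all shared regions. That member, at the pair of the provisional gene Gm43951 and Txndc17, had values of 2.79 and 4.18. Among unpaired regions at genes that faced a non-coding gene the share was 0.177%, close to that of the members. The median log2 ratio of replicate 2 to replicate 1 was −0.05 at members and 0.05 over all shared regions, and on −log10 p in place of fold enrichment it was 0.03 at members. Replicate 2 was the higher one at 28.9% of members, 37.3% of unpaired regions and 58.9% of all shared regions. Over the 691 open pairs, fold enrichment ran from 3.00 through a median of 12.8 to 22.4 in replicate 1 and from 4.12 through 12.4 to 21.1 in replicate 2.

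**Figure D3:**
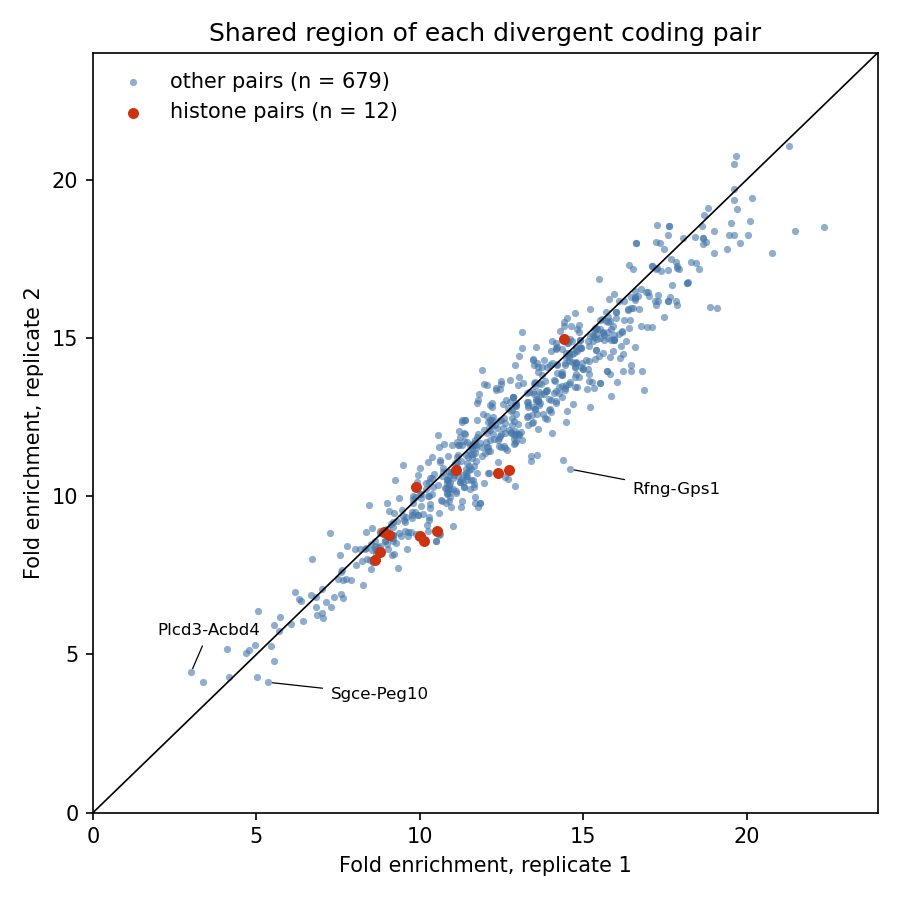
Fold enrichment of the strongest shared region of each of the 691 open pairs in replicate 1 (x) and replicate 2 (y), with equality as a line. The points lie along the line, and the 12 histone pairs (red, mean fold enrichment 8.30 to 14.7) fall within the cloud of the other 679.

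The pairs were ranked by the mean fold enrichment of their strongest region, leaving out pairs with a provisional gene name. The region at Actn3-Zdhhc24 was the highest, with a fold enrichment of 19.7 in replicate 1 and 20.7 in replicate 2 (20.2 ± 0.747, SD, n = 2). Actn3 encodes an α-actinin of fast skeletal muscle, and the summit lay 738 bp from its 5′ end but 21 bp from that of Zdhhc24, a gene of the palmitoyltransferase family. Ccdc157-Sf3a1, the latter a splicing factor subunit, followed with 21.5 and 18.4 (19.9 ± 2.20).

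Sec24a and Sar1b, which both encode parts of the COPII coat that carries cargo from the endoplasmic reticulum, shared a region of 20.2 and 19.4 (19.8 ± 0.526, SD, n = 2). Ptcd2 and Mrps27, both for mitochondrial RNA and translation, shared one of 19.6 and 19.7 (19.7 ± 0.0699). The replicates were almost equal at this pair, whereas at Ccdc157-Sf3a1 replicate 1 was higher.

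The next 6 pairs were close to one another. Ccdc146-Fam185a had 19.6 and 19.3 (19.5 ± 0.190, SD, n = 2), and Mdh1b-Fastkd2, the latter a regulator of mitochondrial RNA, had 20.1 and 18.7 (19.4 ± 0.992). Ginm1-Ppil4, the latter a cyclophilin of the spliceosome, had 19.7 and 19.1 (19.4 ± 0.455). Hepacam2-Vps50, the latter a subunit of an endosomal tethering complex, had 20.8 and 17.7 (19.2 ± 2.19). Given these SDs, the order of the 10 pairs is not resolved. Skiv2l-Nelfe pairs an RNA helicase of the exosome pathway with a subunit of the elongation factor NELF and had 20.04 and 18.2 (19.1 ± 1.28). Timm23-Parg pairs the channel of a mitochondrial inner membrane translocase with the enzyme that removes poly(ADP-ribose), and had 19.5 and 18.6 (19.1 ± 0.629).

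At the other end of the same ranking, values were far below these. Plcd3-Acbd4 had 3.00 in replicate 1 and 4.43 in replicate 2 (3.71 ± 1.01, SD, n = 2), and Tango2-Arvcf had 3.37 and 4.12 (3.75 ± 0.529). Tshz1-Zadh2 had 4.14 and 4.29, Eme2-Mrps34 had 4.11 and 5.16, and Mepce-Zcwpw1 had 5.02 and 4.29. Plcd3-Acbd4 was also the pair with the largest log2 ratio of replicate 2 to replicate 1 (0.56), followed by Nrg4-Tmem266 (0.34) and Eme2-Mrps34 (0.33). In the other direction the largest were Rfng-Gps1 (−0.43), with 14.6 and 10.8, then Sgce-Peg10 (−0.38) and Gfer-Noxo1 (−0.37). Sgce and Peg10 are imprinted genes expressed from the paternal allele, and their region of 246 bp had 5.36 and 4.12 (4.74 ± 0.881).

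The rule required overlap with the interval, and most regions also reached into both genes. With a median width of 1033 bp over a median spacing of 128 bp, such reach is largely set by geometry. The summit lay between the 5′ ends at 441 of 691 pairs (63.8%), or 64.0% by the summit of replicate 1 and 62.8% by that of replicate 2. It lay inside the minus-strand gene at 138 pairs and inside the plus-strand gene at 112. Both 5′ ends were covered at 649 pairs (93.9%). The region reached a median of 435 bp into the minus-strand gene and 429 bp into the plus-strand gene. At unpaired 5′ ends, by comparison, the median reach was 482 bp into the gene and 360 bp upstream of it, and the summit was upstream at 64.3%. This last share is bounded by a single 5′ end, so it is not the same measure as the share between the ends of a pair.

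Spacing had quartiles of 66.3 and 240.0 bp over all pairs. The share of open pairs was 96.1% at 1 to 100 bp, 91.5% from there to 200 bp, 97.9% to 300 bp, 95.3% to 500 bp and 86.8% to 1000 bp. Median fold enrichment in replicate 1 ran along the same groups from 13.5 through 12.8, 12.4 and 12.1 to 11. In replicate 2 it ran from 13 to 10.8. Median width stayed between 992.5 and 1142 bp in all 5 groups, and the median of width minus spacing fell from 937 bp to 281 bp. That difference is the part of the region outside the interval only where both 5′ ends are covered. The summit lay between the 5′ ends at 146 of 294 open pairs (49.7%) 1 to 100 bp apart, the largest group, and at 71.2% to 75.5% of those in the wider groups. Both 5′ ends were covered at 99.7% of open pairs 1 to 100 bp apart and at 45.8% of those more than 500 bp apart.

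**Figure D4:**
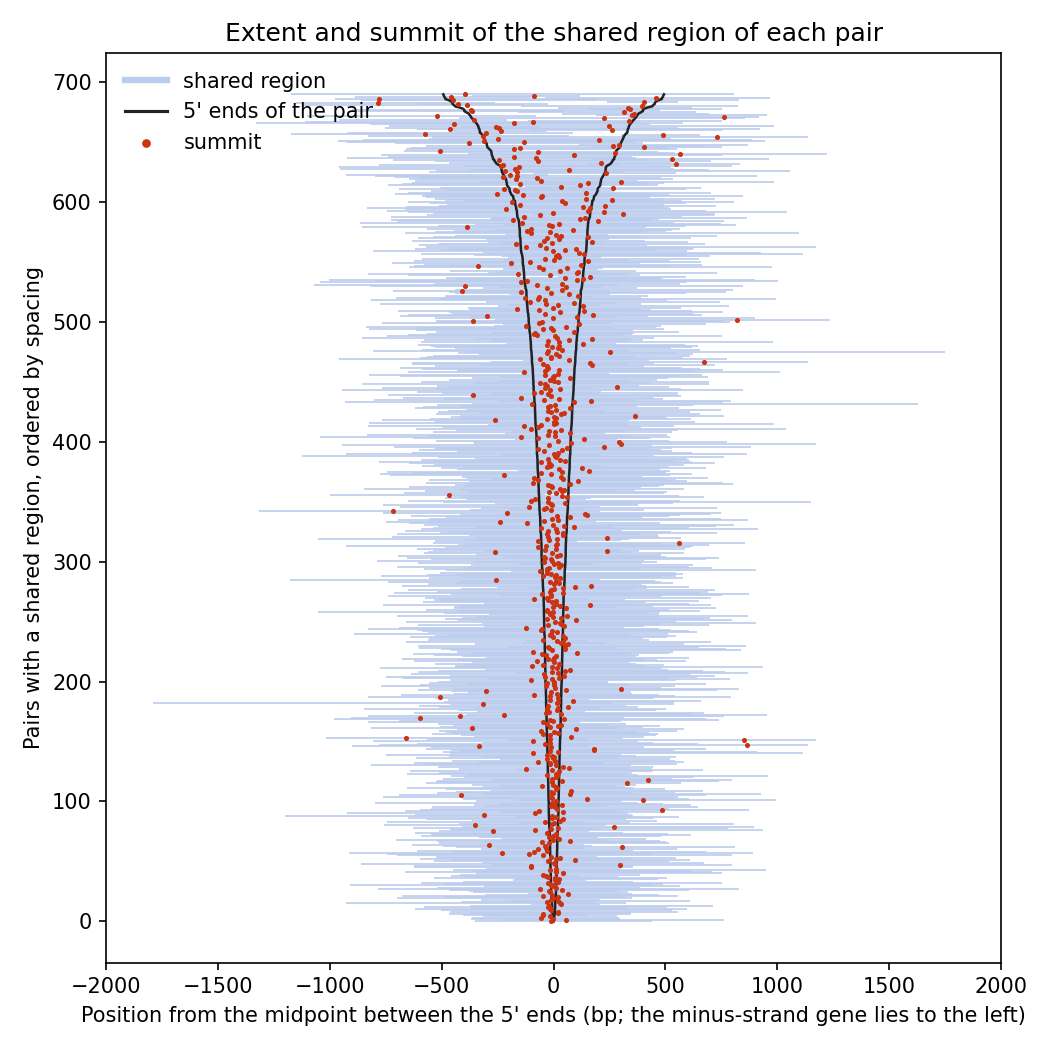
Extent of the shared region (light bars) and its summit (red points) for each of the 691 open pairs, in bp from the midpoint between the 5′ ends (black lines), ordered by spacing. Summits lie between the 5′ ends at 441 of 691 pairs, and at the widest spacings fewer bars reach across both ends.

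The closest pairs were Bag4-Lsm1 and Slc7a6os-Prmt7, whose 5′ ends were adjacent bases 1 bp apart, and Dhrs1-Nop9 at 3 bp. Their regions had 14.2 and 13 (13.6 ± 0.828, SD, n = 2), 17.7 and 16.3 (17 ± 0.970), and 11.6 and 10.4 (11 ± 0.897). The widest spacings were those of Btf3l4-Txndc12 (987 bp), Asphd1-Sez6l2 (981 bp) and Zfyve26-Rad51b (978 bp). These 3 differed in form. Btf3l4-Txndc12 had one region of 1983 bp across both ends, Asphd1-Sez6l2 had one of 485 bp that covered neither, and Zfyve26-Rad51b had 2 regions. In all, 13 pairs had 2 regions, with spacings from 263 bp and a median of 660 bp. Among them, and chosen after their values were seen, Tst-Mpst pairs 2 sulfurtransferases of sulfide metabolism and Urod-Hectd3 includes the uroporphyrinogen decarboxylase of heme synthesis. The widest regions were at Uqcrh-Lrrc41 (2144 bp), Ddx5-Cep95 (2048 bp), Ift80-Smc4 (1994 bp), Btf3l4-Txndc12 and Slc30a7-Extl2 (1921 bp), with mean fold enrichments of 6.78 to 12.6.

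Motifs of general promoter factors, which differ in length, varied widely in how often they were found near the summits. The sequence within 150 bp of each summit was searched on both strands for the exact letters of 13 motifs, and such a match is a description, not a bound site. The ETS letters CCGGAAG were found in 209 of 685 members (30.5%), against 19.7% of unpaired promoter regions and 5.85% of all shared regions. The YY1 letters AAGATGGC were found in 8.91% against 5.33% and 2.44%. The ZNF143/THAP11 letters ACTACAA were found in 7.30% against 4.25% and 3.06%, and CCAAT in 45% against 37.5% and 31.4%. SP/KLF letters GGGCGG were the most frequent, at 74.3% of members and 69.6% of unpaired regions. GCGCATGC (NRF1) was in 5.99% and 5.31%, TGACGTCA (CRE) in 4.96% and 3.84%, TTGGCGC (E2F) in 6.42% and 4.63%, and CACGTG (E-box) in 10.8% and 10.7%.

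Letters linked to blood-cell enhancers and to focused promoters were rare at members and at unpaired regions alike. The GATA-factor letters, AGATAA, were in 3.21% of members, 4.06% of unpaired regions and 12.5% of all shared regions. TGTGGTT (RUNX) was in 2.77%, 3.81% and 10.8%, TGAGTCA (AP-1) in 2.19%, 3.11% and 8.84%, and TATAAA in 3.36%, 4.23% and 10.8%. All shared regions were poorer in G and C than members (medians 49.8% and 63.8%), and the part of base composition in these shares was not tested. From the lowest CpG tertile to the highest, AGATAA was in 5.91%, 2.27% and 2.13% of members and 8.08%, 2.72% and 1.02% of unpaired regions. The ETS and YY1 shares of members were above those of unpaired regions in each tertile of CpG content. They were 18.8% and 14.2% for ETS in the lowest tertile, 36.7% and 24.8% in the middle one, and 32.8% and 20.6% in the highest. For SP/KLF the order turned with CpG content, at 65.1% and 46.5% in the lowest tertile but 80.9% and 87.8% in the highest.

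**Figure D5:**
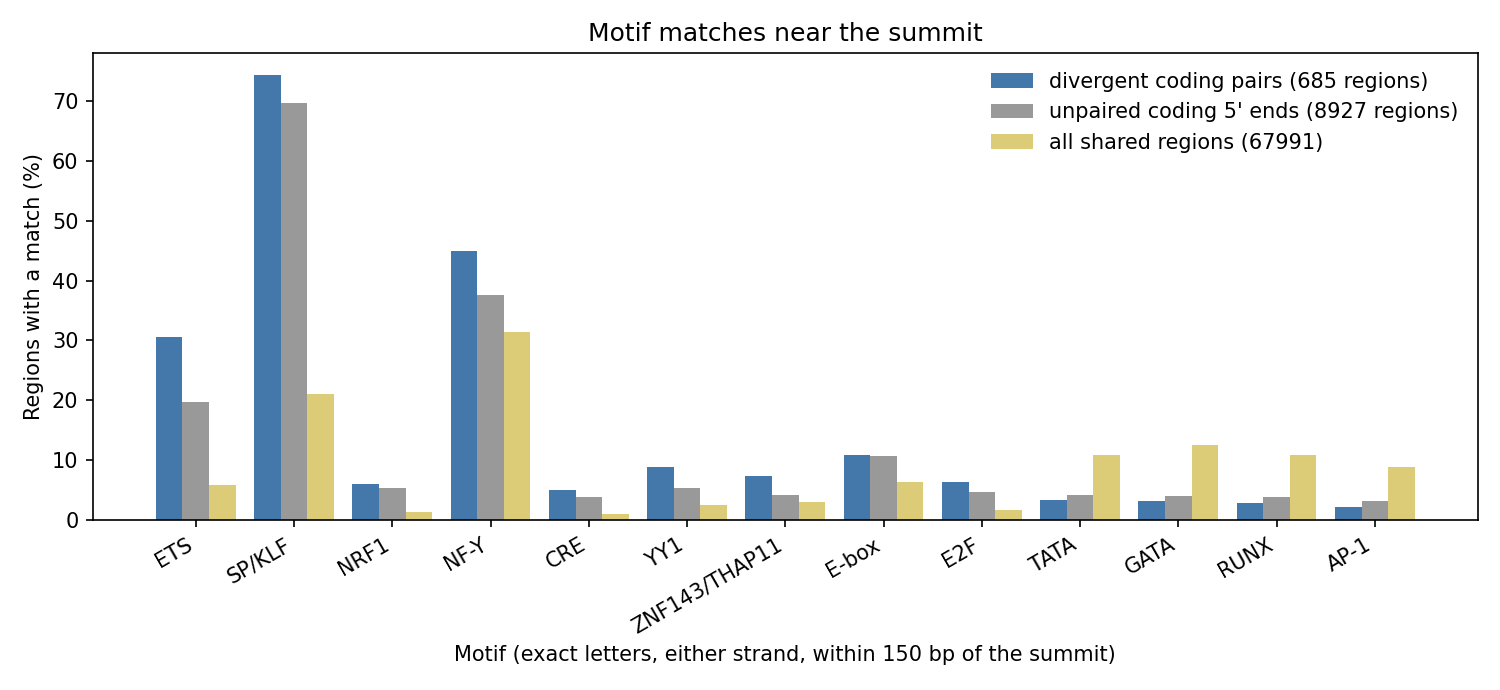
Share of regions with at least 1 exact match within 150 bp of the summit, for 13 motifs in member regions, regions at unpaired coding 5′ ends and all shared regions. ETS shows the widest gap between members (30.5%) and unpaired regions (19.7%), and GATA, RUNX, AP-1 and TATA are highest over all shared regions.

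Members with some of these matches were stronger, and those with others were weaker. Median fold enrichment was 13.5 with an ETS match and 12.1 without, and 14 with a YY1 match and 12.4 without. Unpaired regions showed the same order, with 13.3 and 10.9 for ETS. Members also had higher medians with SP/KLF, NF-Y, ZNF143/THAP11 or E2F letters than without. They had lower medians with TATA, GATA or AP-1 letters, for AP-1 10.3 in the 15 members with a match and 12.5 without. With NRF1, CRE, E-box or RUNX letters the medians were only slightly lower, for NRF1 12.3 and 12.5. Unpaired regions had the reverse order for NRF1 (12.4 with, 11.3 without), CRE (12.2 and 11.3) and E-box (11.6 and 11.4). For TATA, GATA, RUNX and AP-1 their order was that of the members. Counting how many of 7 promoter motifs (the printed set without TATA) a region held, 5.84% of members and 12.6% of unpaired regions held none. Members with none had a median of 11.8, and the 18 members with 4 had 14.6.

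By function, paired genes were most frequent among histones, where 27 of 78 genes (34.6%) lay in a pair, against 6.96% of all coding genes. DNA replication and repair followed with 46 of 166 (27.7%), then RNA polymerase, splicing and RNA processing with 75 of 358 (20.9%), cell cycle and mitosis with 35 of 176 (19.9%) and mitochondrial proteins with 60 of 303 (19.8%). Proteasome, ubiquitin-conjugating and chaperone genes had 30 of 193 (15.5%), aminoacyl-tRNA synthetases 5 of 35 (14.3%), the cytosolic ribosome 9 of 78 (11.5%) and vesicle traffic 35 of 325 (10.8%). Zinc finger genes had 27 of 449 (6.01%). These shares come from the annotation and not from the chromatin data. In these lists, 73 of 75 paired RNA genes, 33 of 35 cell cycle genes, 29 of 30 proteasome and chaperone genes, 5 of 5 synthetases, 34 of 35 vesicle genes and 25 of 27 zinc finger genes had a shared region. Over all paired genes the count was 1363 of 1448 (94.1%), near most of these shares.

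Both genes of a pair belonged to the same list at 28 pairs, 13 of them histones. Atm-Npat joins the kinase that signals DNA double-strand breaks to a coactivator of histone transcription, and its region had 13.5 in replicate 1 and 13.6 in replicate 2 (13.6 ± 0.0657, SD, n = 2). Mcm4-Prkdc joins a subunit of the replicative helicase to the catalytic subunit of DNA-PK, with 12.9 and 11.7 (12.3 ± 0.866). Sdhd-Timm8b, for a succinate dehydrogenase subunit and a mitochondrial import chaperone, had 12.5 and 13.7 (13.1 ± 0.825). Hspa1a-Hspa1l, 2 members of the HSP70 family, had 15.2 and 12.8 (14 ± 1.69). Zbtb25-Zbtb1, for 2 zinc finger proteins, was low in both replicates, with 5.53 and 4.79 (5.16 ± 0.525). The last 3 pairs were picked after their values were seen.

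Other pairs known from textbooks were open with middling values. Mrps12-Sars2, for a mitochondrial ribosomal protein and the mitochondrial seryl-tRNA synthetase, had 14.5 and 15.6 (15.1 ± 0.793, SD, n = 2), and its printed interval held 4 CCAAT boxes. Polr1c-Yipf3, the former a subunit shared by RNA polymerases I and III, had 14.2 in both replicates. Psmb1-Tbp, for a proteasome subunit and the TATA-binding protein, had 12.03 and 11.7 (11.9 ± 0.220). Brca1-Nbr1, for a repair protein and an autophagy receptor, had 10.4 and 10.7 (10.6 ± 0.205), and Gart-Son, for a purine synthesis enzyme and a splicing cofactor, had 10.7 and 10.9 (10.8 ± 0.135). In both of the last pairs the summit lay inside the plus-strand gene, 576 bp into Nbr1 and 290.0 bp into Son. All but Mrps12-Sars2 and Polr1c-Yipf3 were below the median of the open pairs in both replicates.

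The genes with the highest values in other lists were Rad9b of the DNA damage checkpoint (Rad9b-Vps29, 18.9 ± 0.951, SD, n = 2), Rars2, the mitochondrial arginyl-tRNA synthetase (Orc3-Rars2, 17.6 ± 0.234), and Rps28, a ribosomal protein (Rps28-Ndufa7, 16.7 ± 0.346). Rps27-Rab13 had 16.0 ± 0.297. Anapc2, a subunit of the anaphase-promoting complex (Ssna1-Anapc2), had 15.6 ± 0.984, and the centromere gene Cenpp (Cenpp-Nol8) 15.3 ± 0.732. Pfdn2, a prefoldin subunit (Nit1-Pfdn2), had 17.6 ± 0.536. Zbtb26 and Zbtb6 both face Rabgap1 and share its region of 18.4 ± 0.364. Such sharing was uncommon, with 19 of the 685 regions serving more than 1 pair.

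Histone pairs had regions of another form. Of 13 pairs in which both genes encode histones, 12 had a shared region, 11 of them on chromosome 13. Their median width was 438.5 bp, against 1038 bp at the other 679 open pairs, although their spacings (176 to 660 bp) were not small. All but 1 were a single listed peak in each replicate. Median fold enrichment was 10.1 in replicate 1 and 8.89 in replicate 2, against 12.9 and 12.5. They held a median of 14 CpG near the summit, against 26.

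All 12 histone pairs had at least 2 CCAAT boxes near the summit (2 to 5), as against 147 of the other pairs (21.6%). None had an ETS match, which 215 of the others (31.7%) had, and 7 had TATAAA (58.3%), as against 15 others (2.21%). The highest was Hist1h2ah-Hist1h2bk, with 14.4 and 15 (14.7 ± 0.381, SD, n = 2). Hist1h2ac-Hist1h2bc and Hist1h2an-Hist1h2bp, printed above, had 12.7 and 10.8 (11.8 ± 1.33) and 12.4 and 10.7 (11.6 ± 1.17). Hist1h2ba-Hist1h2aa, which encodes the testis forms of H2B and H2A, had no region in either replicate. Histone genes are near-identical copies, so reads could be split or dropped among them, and the values of single histone pairs are uncertain.

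The share of paired genes in the blood lists was near or below that of all coding genes. Of 85 megakaryocyte and platelet genes 4 did (4.71%), close to the 6.96% of all coding genes, and of 99 blood transcription factors 1 did (1.01%). Hps5 and Hps4 encode subunits of complexes that build lysosome-related organelles such as platelet dense granules. The region at Hps5-Gtf2h1, the latter a subunit of TFIIH, had 14.7 and 13.8 (14.2 ± 0.691, SD, n = 2). That at Srrd-Hps4 had 11.7 and 9.78 (10.7 ± 1.34). Vipas39, needed for α-granule formation, shared a region with Ahsa1 of 13.5 and 12.8 (13.1 ± 0.451). Mmrn2, of the multimerin family, faced Sncg and had no shared region. Ikzf5, an Ikaros-family factor, shared a region of 16.6 and 16.3 (16.4 ± 0.235) with Acadsb, an enzyme of branched-chain amino acid breakdown.

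The cell type label was checked on 57 marker genes, none of which lay in a pair. A shared region within 500 bp of the 5′ end was present at 9 of 20 megakaryocyte markers, among them Itga2b, Itgb3 and Pf4. It was absent at Gp1ba and Gp9, among others. The share of megakaryocyte markers was no higher than that of unpaired coding 5′ ends, of which 48.3% had a shared region in a smaller upstream window. Within 500 bp, neutrophil markers had a shared region at 9 of 10, and monocyte and macrophage markers at 7 of 8. Erythroid markers had one at 3 of 7, B cell and endothelial markers at 1 of 4 each and T cell markers at 0 of 4. The part of such cells in the values at the pairs was not tested.

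The 43 pairs without a shared region had fewer CpG dinucleotides than the open ones. Their median was 7 CpG around the midpoint, against 25 at the open pairs, and 9 had a provisional gene name. Col4a4 and Col4a3 encode collagen chains of the glomerular basement membrane, and Duox2 and Duoxa2 the oxidase of thyroid hormone synthesis and its maturation factor. Bhmt2-Dmgdh are enzymes of choline and methyl-group metabolism. Testis genes included Tssk2 (with Dgcr2), Spata22 (with Aspa) and Ddx25 (with Pus3). Best1-Rab3il1, Fbxo44-Fbxo2, Gml-Gml2 and Grik5-Zfp574 complete the first 10 in alphabetical order. Peg3-Usp29, chosen after the values were seen, is imprinted and methylated on the maternal allele.

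Some of these pairs had an open start nearby. Another annotated start of either gene lay in a shared region at 18 of the 43 pairs, and at 25 no start did. The nearest shared region was within 500 bp of the interval at 8 pairs and beyond 10 kb at 18. Pinlyp-Xrcc1 and Rad51c-Tex14, also chosen after their values were seen, and Ddx25-Pus3 each join a gene used in every cell to another gene. The nearest regions were 204 bp away for Pinlyp-Xrcc1, with a mean fold enrichment of 22.5, 88 bp for Rad51c-Tex14 (17.3) and 411 bp for Ddx25-Pus3 (17.1). Xrcc1, Rad51c and Pus3 each had another annotated start in a shared region.

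Near the limits of the rule, pairs changed gradually. From 500 to 1000 bp, 59 of 68 pairs had a region (86.8%, median fold enrichment 10.8), and from there to 1500 bp, just outside the rule, 36 of 44 did (81.8%, 9.79). Pairs whose gene records overlap at their 5′ ends by up to 1 kb are also left out by the rule, and 411 of 446 of them had a shared region (92.2%, median 12). Among these are textbook pairs of the same kind. Hspd1-Hspe1, for the mitochondrial chaperonins HSP60 and HSP10, had 10.7 and 9.71 (10.2 ± 0.691, SD, n = 2). Surf1-Surf2 had 14.6 and 13.7 (14.1 ± 0.628), and Ppat-Paics, for 2 enzymes of purine synthesis, had 10.9 and 10.04 (10.5 ± 0.593). Col4a1-Col4a2, the collagen IV pair of most basement membranes, had no shared region. Pcna and Top1mt were in no pair. Surf4, of the same cluster as Surf1, was within the rule and faced Stkld1 with 11.95 and 10.4 (11.2 ± 1.08).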

How the data were processed

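Per the labels, 2 ATAC-seq samples of mouse megakaryocytes were processed on the mm10 build. The peak caller, aligner and their versions are not given in the sources used here. In the peak lists the authors deposited, column 7 is the fold enrichment over local background, a ratio, and columns 8 and 9 the −log10 p-value and q-value of each peak, taken from the peak format. In the lists used, the largest p-value was 0.00997. The values were used as deposited, since the labels name no scaling. Read depth is unknown, so no interval was computed. Peaks sharing at least 1 bp were merged per sample (106308 and 111873 listed peaks gave 78004 and 79861 regions), keeping the highest fold enrichment and its summit. 5′ ends came from GENCODE M21 and sequence from the RefSeq GRCm38 genome. Merging, pairing and motif search were tested on simulated data. Python 3.11.15, pandas 2.3.3 and numpy 2.4.6 were used. The members, gene lists and tables were chosen with earlier results of these data known. Named pairs were the 10 highest, 5 lowest and 5 widest, the 3 extremes of replicate ratio and spacing each way, the first 10 without a region, the 2 highest genes per list, every paired megakaryocyte gene and blood factor, and textbook pairs. Alternatives were other peak lists, overlaps, thresholds, spacings and motif windows, and each replicate left out.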

Additional observations from a re-analysis of the deposited data

How the results depend on the processing

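No paired analysis was possible because the 2 samples form 1 group. Depth is unknown, n = 2 limits every SD, and a peak list cannot show openness below the threshold of its caller. The excess in fold enrichment over unpaired regions kept its direction under every alternative run, but the median log2 ratio of replicate 2 to replicate 1 at members turned from −0.05 to 0.03 when taken on −log10 p. Of 121 values, 67 stayed close to the reported one, by the spread between replicates for shares, medians and widths, the SD over members for the log2 ratio, 1.5 times for counts and the 95% Wilson interval for motif shares. The causes of the other moves were not tested beyond what each alternative is built to change.

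The share of open pairs was 92.2% with the IDR-thresholded list of each sample, 94.3% with the replicated-peaks list, 93.9% with the conservative IDR list and with peaks of at least 4-fold, 92.9% with 50% reciprocal overlap, 94.9% within 500 bp and 94.8% without provisional names. The share of unpaired 5′ ends was 42.8%, 51.1%, 46.8%, 46.9% (at least 4-fold) and 46.9% (50% overlap). Median fold enrichment of members was 12.99 with the replicated-peaks list, 13.1 with the conservative IDR list and 12.8 within 500 bp, and the median −log10 p was 98.4. Its excess over unpaired regions was 1.08 as reported, 0.625 with the IDR-thresholded lists, 1.35 with the replicated-peaks list, 0.863 with the conservative IDR list, 0.956 at 4-fold, 1.38 within 500 bp, 21.9 as −log10 p, and 1.37, 0.724 and 1.26 in the CpG tertiles. Width was 1056 bp with the conservative IDR list. The share of summits between the 5′ ends was 64.6% with the IDR-thresholded lists and 62.9% by the summit of replicate 2.

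With each replicate left out in turn, the share of open pairs was 94.0% to 94.1%, that of unpaired 5′ ends 48.5% to 49.0%, the number of members 687 to 689, the median fold enrichment 12.3 to 12.6, its excess 1.19 to 1.24, the width 929 to 979 bp and the share of summits inside 62.8% to 64.2%.

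Motif shares grew with the window. With 100 bp and 250 bp to each side they were 26.3% and 34.6% for ETS, 66.0% and 82.8% for SP/KLF, 40.6% and 52.3% for NF-Y, 6.86% and 11.7% for YY1, 4.38% and 9.78% for E2F, 2.19% and 5.69% for TATA and 1.46% and 7.59% for GATA. With 100 bp the E-box share was 7.74% and the RUNX share 1.75%. Around the midpoint between the 5′ ends, SP/KLF was 68.5%, TATA 5.11% and GATA 4.96%.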

Other observations

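Motif letters were also counted strictly between the 5′ ends. ETS matches lay in 111 of the 689 open intervals that hold at least 1 base (16.1%) and in 2 of the 43 intervals without a shared region (4.65%). For SP/KLF the shares were 54.3% and 39.5%, and for CCAAT 39.2% and 32.6%. ZNF143/THAP11 letters were in 26 open intervals (3.77%) and in 0 of the 43. TATAAA was in 3.92% and 4.65%. Open and other intervals differ in length and CpG content, and no test was made.

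The density of pairs varied between chromosomes in the annotation. On chromosome 8, 9.71% of coding genes were paired, and 51 of its 52 pairs were open. On chromosome 6 the share was 4.77%, with 26 of 27 pairs open. On chromosome 7, 51 of 59 pairs were open, and on chromosome 5 all 58 were.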
